A study of Mus musculus with 4 samples.

Results

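The BCL-2 family decides whether a cell keeps its mitochondria intact or dies by the intrinsic route of apoptosis, and 10 of its genes were followed here through activated mouse T cells. They comprised 3 pro-survival genes (Bcl2, Bcl2l1, Mcl1), 5 BH3-only genes (Bcl2l11, Bmf, Bbc3, Pmaip1, Bid) and 2 effector genes (Bax, Bak1). They were taken from the deposited count table by gene symbol, and were chosen because Bmf was lower in the libraries labelled knockout while the others differed little. All 10 were among the 22672 named genes, and all 10 passed the filter on low counts that left 12758 genes for testing. Because the difference between genotypes chose the members, their values in that comparison are given as a description, with no test.

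The RNA came from splenic T cells of Pmel mice, whose T cells bear a transgenic receptor that recognises gp100, a pigment cell protein. All cells had been stimulated for 72 h with the peptide at 1 µg/ml, in the presence of IL-2 at 100 U/ml. The design set 2 libraries with the label WT control against 2 with the label SphK1 -/-. Sphingosine kinase 1, the enzyme missing under the latter label, makes sphingosine-1-phosphate. The labels give neither age nor sex and do not say whether the 2 libraries of a genotype came from separate animals, so p-values here measure only the spread between these libraries, which may be technical. Counts on named genes totalled 43642723 in control 1, 45760330 in control 2, 50406140 in knockout 1 and 53500852 in knockout 2.

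The targeted gene ran against the labels. Sphk1 had 2 reads in control 1 and 4 in control 2, but 35 in knockout 1 and 18 in knockout 2, so the groups are called by their labels. The sources used here do not describe the allele. Markers of T cells, 8 genes such as Cd3e and Cd8a, summed to 3669 and 3753 CPM in the controls, against 3366 and 3528 CPM under the knockout label. CPM are read counts scaled to a common library size after edgeR's TMM scaling, which allows for differences in composition. The TMM factors were 1.077 and 1.097 in the controls, and 0.9328 and 0.908 under the knockout label. In 6 of the 8 both libraries labelled knockout lay below both controls, as they did for 23.8% of all tested genes, while the groups overlapped for Cd8a and Cd2. B cell markers, 7 genes, summed to 390.2 CPM in knockout 1 and to between 183.8 and 192.7 CPM in the other libraries. Knockout 1 thus stood apart in the sum. Cd79a alone was higher in both libraries labelled knockout, at 21.8 and 22.6 against 86.1 and 37.9 CPM (edgeR, adjusted p = 0.0236). It was not called at an adjusted p under 0.05 with DESeq2 or limma-voom. Of its 30-base words, 12.5% occur in another annotated gene. Macrophage and monocyte markers summed to 11.2 and 14.6 against 29.9 and 18.2 CPM, and natural killer markers to 149.1 and 85.5 against 174.0 and 94.1 CPM. Among the macrophage and monocyte markers, Lyz2, Cd14 and Cd68 were higher in both libraries labelled knockout, and the others in the table overlapped. For Cd68 the adjusted p was 0.0478 (edgeR), and 0.188 among single-copy genes. Of the 8 natural killer markers, Klre1, Ncr1, Klrb1c and Tyrobp were higher in both libraries labelled knockout (21% of all tested genes were), Klra8 and Klra4 were at 0, and Gzma and Eomes, which activated T cells also express, overlapped. Klre1 rose, from 2.41 and 2.09 CPM to 9.91 and 7.25 CPM (edgeR, adjusted p = 0.00133, and 0.0202 among single-copy genes). The part of these markers in the values below was not tested. In bulk RNA, fewer cells of a type and less RNA per cell cannot be told apart.

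BCL-2, BCL-XL (from Bcl2l1) and MCL-1 hold the effectors BAX and BAK in check at the outer mitochondrial membrane. BH3-only proteins answer stress or loss of growth signals by occupying the groove of the pro-survival proteins, and some also engage the effectors directly. In T cells, BIM (from Bcl2l11) is known for removing activated cells when antigen and cytokine run out, and BMF, PUMA (Bbc3) and NOXA (Pmaip1) act beside it under other forms of stress.

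What joins the members is the BH3 stretch, the helix by which they bind each other. The coding bases of its core are shown for the 9 members whose sequence is printed, because they show the feature that Bmf shares with genes that behaved otherwise. Capitals mark the codons of the conserved leucine, the small residue and the aspartate.
Bmf: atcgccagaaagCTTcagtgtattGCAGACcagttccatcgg
Bcl2l11: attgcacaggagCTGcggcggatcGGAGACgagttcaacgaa
Bbc3: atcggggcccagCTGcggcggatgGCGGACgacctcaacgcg
Bid: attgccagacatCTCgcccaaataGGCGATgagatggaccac
Bcl2: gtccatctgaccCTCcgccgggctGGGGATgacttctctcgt
Bcl2l1: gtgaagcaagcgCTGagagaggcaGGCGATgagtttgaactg
Mcl1: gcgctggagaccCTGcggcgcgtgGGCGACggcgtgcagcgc
Bax: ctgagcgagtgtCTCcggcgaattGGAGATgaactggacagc
Bak1: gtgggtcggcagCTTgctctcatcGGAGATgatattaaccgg

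These bases were read from GENCODE M21 transcripts (GRCm38), 5′ to 3′ on the coding strand. The search asked for a leucine codon, 3 codons of any kind, a glycine or alanine codon, an aspartate codon, any codon, and a codon for phenylalanine, leucine, isoleucine, valine or methionine. Each of the 9 genes held it once and Pmaip1 held it 2 times, whereas 8.5% of 21540 protein-coding genes held it at all. The codon before the aspartate was alanine in Bmf and Bbc3 and glycine in the other 7. The Bmf stretch lies in exon 4 of 5 at chr2:118545097-118545138 (minus strand), and that of Bcl2l11 in exon 3 of 4 at chr2:128147138-128147179 (plus strand). They shared 24 of 42 bases, and across the other members Bmf shared between 15 and 23. A match is a description of the letters and says nothing of binding.

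Bmf and Bcl2l11 have a further stretch in common, by which their proteins are known to be held on dynein light chains. It is shown because the partner genes Dynll1 and Dynll2 are described below. Capitals mark the codons of lysine, threonine, glutamine and threonine.
Bmf: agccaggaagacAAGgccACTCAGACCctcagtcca
Bcl2l11: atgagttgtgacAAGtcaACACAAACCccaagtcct

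The Bmf stretch lies in exon 3 at chr2:118546783-118546818 and that of Bcl2l11 in exon 2 at chr2:128128942-128128977, and 21 of 36 bases were the same. No other member held these codons, which occurred in 0.385% of protein-coding genes.

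Bmf, the BH3-only gene whose product is released from the cytoskeleton under stress, was the member that differed most. It lies on chromosome 2 from 118528757 to 118549687 (GRCm38). Control 1 held 743 reads and control 2 held 791, against 298 in knockout 1 and 258 in knockout 2. This came to 15.8 CPM in each control library, 6.34 CPM in knockout 1 and 5.31 CPM in knockout 2. Both libraries labelled knockout lay far below both controls, and the groups did not overlap. The means were 15.8 ± 0.0364 and 5.83 ± 0.726 CPM (SD, n = 2 each), a log2 fold change (knockout label over control, fitted with edgeR) of −1.44 ± 0.18 (SE), or 0.369 times the control level.

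The spread of the controls was smaller than counting error alone. Exact 95% counting intervals ran from 14.7 to 17.0 and from 14.7 to 16.9 CPM in controls 1 and 2, from 5.64 to 7.1 CPM in knockout 1 and from 4.68 to 6.0 CPM in knockout 2. Such intervals hold counting error alone, and reads without a molecular identifier may be copies of 1 molecule. The intervals do not test the difference between groups, which chose the members. No other gene overlaps the exons of Bmf, and 0.17% of its 30-base words occur in another annotated gene. Of the 12758 tested genes, 97 had a log2 fold change at or below that of Bmf, among them 45 of the 9074 single-copy genes (at most 5% shared words and 10% exonic overlap) in that fit.

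**Figure D1:**
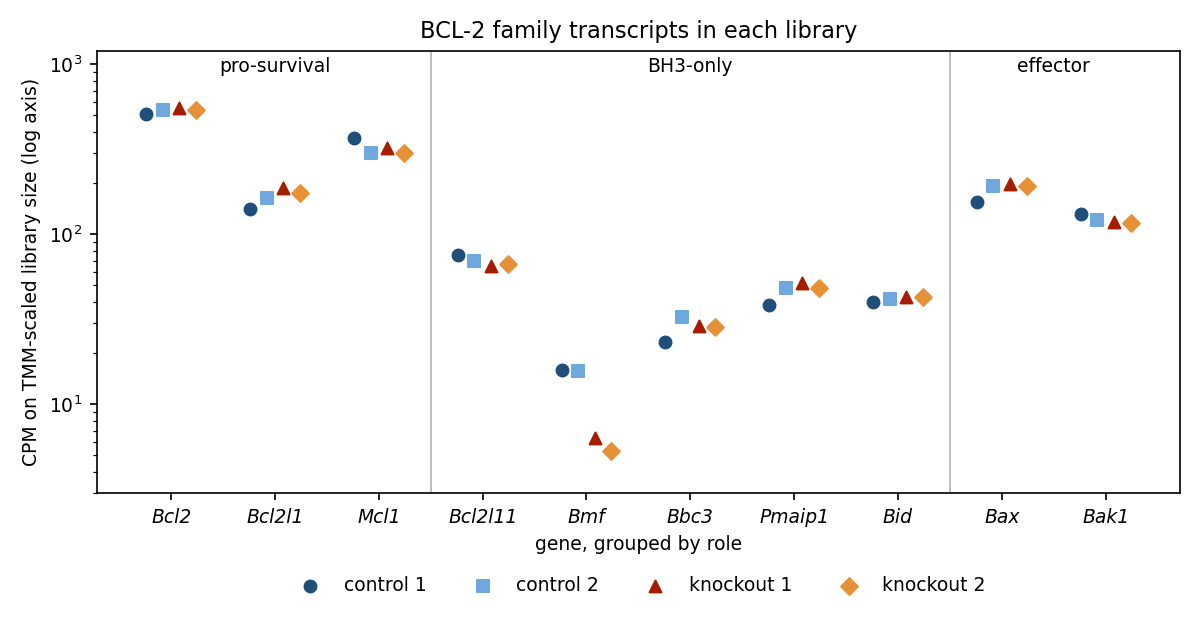
Level of each member in each library, as CPM on a log axis, with genes grouped by role and 1 point a library. Bmf sits at 15.8 CPM in both controls, and at 6.34 and 5.31 CPM under the knockout label, while the other genes vary by at most 1.4 times.

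Bcl2l11, which encodes BIM, was a little lower under the knockout label. It stood at 75.9 and 69.7 CPM in the controls, against 64.9 and 66.8 CPM. The groups did not overlap, but the gap between them was smaller than the gap between the controls. The log2 fold change was −0.15 ± 0.11 (SE), and −0.053 without control 1.

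Bbc3, which encodes PUMA, stood at 23.1 and 32.4 CPM in the controls, against 29.0 and 28.5 CPM under the knockout label. Both of the latter lay between the controls, and control 1 was the lowest. Its log2 fold change was 0.049 ± 0.17 (SE). Pmaip1, which encodes NOXA, the partner of MCL-1, was at 38.1 and 48.2 against 52.0 and 48.1 CPM, with control 1 again the lowest and a log2 fold change of 0.21 ± 0.14 (SE). Bid, the link from death receptors to mitochondria, varied least among the BH3-only genes, from 40.2 CPM in control 1 to 42.9 CPM in knockout 2 (log2 fold change 0.064 ± 0.11, SE). An opposite-strand neighbour, Bcl2l13, covers 17.7% of the exonic bases of Bid, and without a known strand setting reads of the overlap cannot be told apart.

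Among the pro-survival genes, Bcl2, the founding member, stood at 507.3 and 537.6 CPM in the controls, against 548.9 and 536.6 CPM under the knockout label. The groups overlapped, and the log2 fold change was 0.055 ± 0.12 (SE). Mcl1, whose short-lived product is needed by T cells at many stages, was at 368.9 and 298.4 against 320.9 and 299.4 CPM. Control 1 was the highest, the other 3 libraries were close together, and the log2 fold change was −0.11 ± 0.14 (SE), turning to 0.086 without control 1. Bcl2l1 was at 141.5 and 164.0 against 187.2 and 175.8 CPM. Both libraries labelled knockout lay above both controls, with a log2 fold change of 0.25 ± 0.12 (SE), or 0.0089 with library totals alone in place of TMM scaling.

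The effectors differed little, and in opposite senses. Bax was at 154.3 CPM in control 1 and 192.2 CPM in control 2, against 198.0 and 192.5 CPM under the knockout label. Control 1 stood alone below the other 3 libraries, which were close together, and the log2 fold change was 0.17 ± 0.13 (SE). Bak1 was at 131.2 and 120.9 against 117.2 and 116.2 CPM, with a log2 fold change of −0.11 ± 0.11 (SE), or −0.020 without control 1. Gm45808, on the same strand, covers 12.2% of the exonic bases of Bax. Ggnbp1, on the opposite strand, covers 25.5% of the exonic bases of Bak1 but stood at no more than 1.98 CPM.

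**Figure D2:**
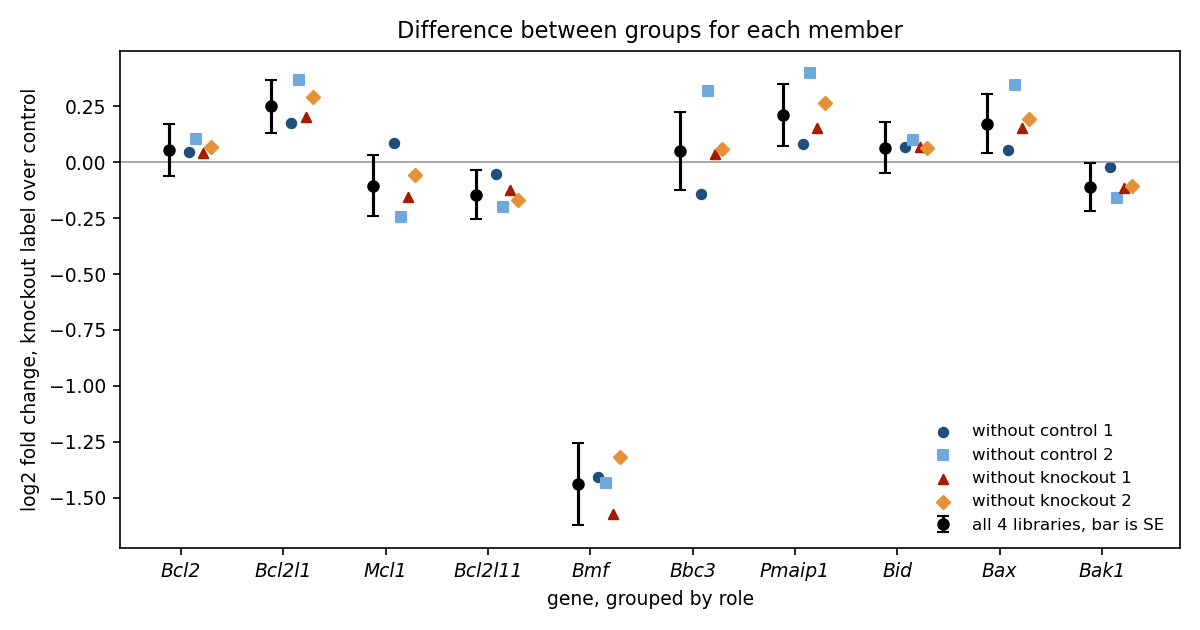
Log2 fold change of each member, libraries labelled knockout over control, from all 4 libraries (black, bar is the SE) and with each library left out (coloured). Bmf lies between −1.57 and −1.32 whichever library is left out, and no other member goes past 0.397 in size.

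Counted as calls at an adjusted p under 0.05 in edgeR, 1 of the 10 members was lower and 0 were higher, against 0.752% of all tested genes called lower and 6% called higher (6.75% in either direction). Among single-copy genes 0.0989% were called lower. Since this contrast chose the members, nothing is read from that count. In 3 members both libraries labelled knockout lay below both controls (Bcl2l11, Bmf, Bak1), in 3 they lay above (Bcl2l1, Bid, Bax), and in 4 the groups overlapped. Over all tested genes these shares were 23.8% below, 21% above and 55.2% overlapping. The median log2 fold change was 0.052 over the members and −0.021 over all tested genes. With library totals alone in place of edgeR's TMM scaling, which allows for differences in composition, the median of all genes moved to −0.26 and the signs of Bcl2, Bbc3, Pmaip1, Bid and Bax turned negative, so the direction of these 5 depends on the scaling.

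Levels can be compared between genes per length, as CPM per kilobase of exon. The order of the genes within a library was not used to choose the members, but the difference of Bmf between groups was. Bax led at 116.9 (97.9 to 125.6 over the 4 libraries), with Mcl1 at 94.2 (87.3 to 107.9). Their ranges overlapped, so the order of these 2 is not fixed. Bcl2 followed at 58.2 (55.4 to 59.95), then Bak1 at 50.4 (48.3 to 54.5) and Bcl2l1 at 36.5 (30.9 to 40.8), each range separate from the next. By exonic length the BH3-only genes came below all of them.

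Pmaip1 (13.96 to 19.0), Bbc3 (10.9 to 15.3) and Bid (11.3 to 12.1) overlapped as neighbours in this order of CPM per kilobase. Bcl2l11 lay apart at 8.08 to 9.46, and Bmf was the lowest member in every library, at 3.01 and 3.001 in the controls, against 1.21 and 1.01. The order depends on the length used. Per kilobase of coding sequence, Bcl2, with 9157 exonic but 729 coding bases, was first at 730.6. Mcl1 (300.5 to 371.5) and Bax (251.4 to 322.5) followed with overlapping ranges, and Bmf stayed last at 13.1. Bcl2l11, at 107.1 (100.2 to 117.3), moved above Bid at 71.7 and Bbc3 at 48.8. Bcl2l1, at 219.4, moved above Bak1. Pmaip1 (123.5 to 168.1) overlapped Bak1 (156.9 to 177.0), so by coding length the BH3-only genes were not all below the others.

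**Figure D3:**
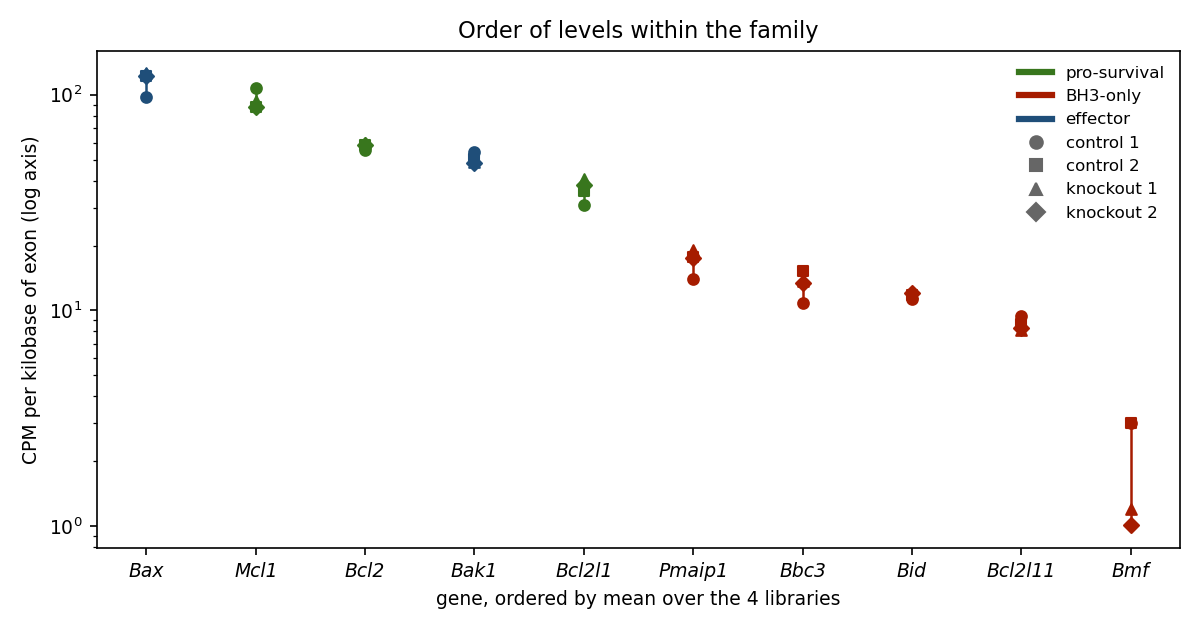
CPM per kilobase of exon for each member on a log axis, ordered by the mean of the 4 libraries, with colour for role, a symbol for each library and a line for the range. By this length the BH3-only genes lie below the pro-survival and effector genes, whereas per kilobase of coding sequence Pmaip1 overlaps Bak1. Bmf is lowest, with the widest range (2.98 times between its highest and lowest library). This range holds the difference between groups that chose the members.

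Summed per kilobase of exon, the pro-survival genes came to 194.2 and 181.8 in the controls, against 194.7 and 184.5 under the knockout label. The BH3-only genes summed to 48.6 and 56.4 against 54.0 and 52.4. The ratio of these sums was 3.99 and 3.22 in the controls and 3.60 and 3.52 under the knockout label, so both of the latter lay between the controls. Transcript sums say nothing of protein amounts, which are set for several of these genes after transcription.

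Within the BH3-only sum, the share of Bmf was 6.19% and 5.32% in the controls, against 2.23% and 1.93% under the knockout label. Pmaip1 held 28.7% and 31.3% against 35.2% and 33.6%, and Bcl2l11 held 19.4% and 15.4% against 14.96% and 15.9%. By coding length Bcl2l11 held 31.8% and 26.25% against 25.1% and 26.6%. Bmf was a small part of the pool in all 4 libraries, and the sums under the knockout label lay between those of the controls. The ratio of Bcl2l11 to Bmf, the pair that shares the light chain stretch, was 3.14 and 2.89 in the controls and 6.69 and 8.23 under the knockout label. The shares of Bmf and this ratio restate the difference between groups that chose the members.

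**Figure D4:**
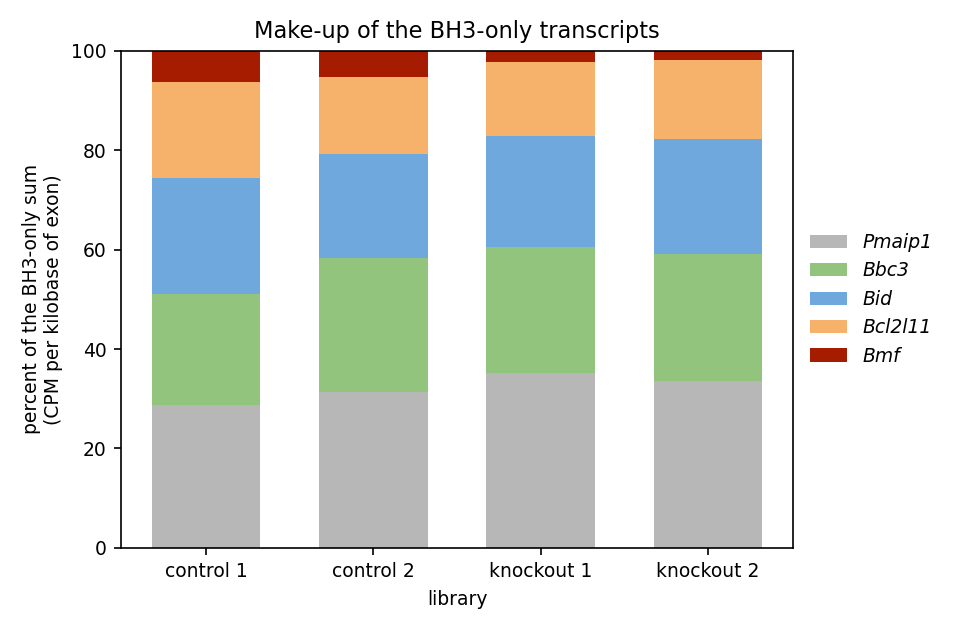
Make-up of the BH3-only transcripts in each library, as percent of their sum in CPM per kilobase of exon. Bmf (dark red, top) takes 6.19% and 5.32% in the controls, and 2.23% and 1.93% under the knockout label.

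The rest of the apoptosis pathway was read from 7 lists, 98 genes in all, of which 93 passed the filter. In edgeR's quasi-likelihood test with Benjamini-Hochberg adjustment over all genes, 7 of the 93 rose and 0 fell, against 6% and 0.752% of all tested genes. At an unadjusted p under 0.05 in edgeR, 18 of the 93 were higher and 2 lower. Over all 12758 tested genes these counts were 1339 and 559. The median log2 fold change of the 93 was 0.076. Without control 2, 18 of the listed genes passed the threshold, 9 of them from the p53 list, against 8.05% of all genes tested in that fit. Except for Aen, the risers share over 5% of their words with other genes. Counts of such genes are uncertain, because the handling of reads with several matches is not given. Entries without a gene name had counts in the controls (1.13% and 1.17% of the total) and no value under the knockout label. Whether reads with several matches were counted alike in both groups was not tested. In a separate fit to single-copy genes alone, 9096 passed the filter because library sizes were taken over that set. There, 0 of the 60 listed genes passed the threshold with edgeR, against 0.781% of that set. At an unadjusted p under 0.05 in edgeR there were 6 of the 60, all higher. Over that set there were 759 of 9096, of which 507 were higher.

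Of the BCL-2 relatives outside the members, 1 of 11 tested genes rose. Bnip3, a mitochondrial gene of hypoxia and mitophagy, went from 167.2 and 115.5 CPM to 390.7 and 355.2 CPM (log2 fold change 1.40 ± 0.18, SE, adjusted p = 0.00103), with 50% shared words and 22.3% of its exonic bases overlapped by another gene. Its paralog Bnip3l, with 23.9% shared words, stood at 199.9 and 126.0 against 276.8 and 242.0 CPM (adjusted p = 0.111). Bcl2l2, which encodes the pro-survival BCL-W, was at 38.3 and 39.1 against 34.9 and 37.8 CPM (adjusted p = 0.798). For Bcl2l13, another relative, the log2 fold change was −0.13 (adjusted p = 0.698).

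In the list of the apoptosome, effector caspases and mitochondrial factors, 2 of 16 tested genes rose. Cycs, which encodes the cytochrome c that builds the apoptosome, went from 2.51 and 1.60 CPM to 226.9 and 269.7 CPM (log2 fold change 6.92, adjusted p = 1.6e-07), with 29.6% shared words. Vdac3, a channel of the outer membrane, rose by 2.19 (adjusted p = 3.99e-06), with 14.4% shared words. Apaf1, the apoptosome scaffold, differed by 0.11 on the log2 scale (adjusted p = 0.818). Vdac1 and Vdac2 had log2 fold changes of −0.16 and 0.26.

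Of the 5 inhibitors of apoptosis, 0 passed the threshold with edgeR, DESeq2 or limma-voom, and 0 were under 0.05 before adjustment. Xiap, the caspase inhibitor, had a log2 fold change of 0.036 and Birc2 of 0.095, Birc5 of −0.13 and Birc6 of 0.0037. In the death receptor arm 0 of 15 passed the threshold with edgeR, 2 with DESeq2 and 1 with limma-voom. At an unadjusted p under 0.05 in edgeR there were 3 of the 15, all higher. Over all 12758 tested genes there were 1898, of which 1339 were higher. Casp8, which cleaves BID, stood at 177.8 and 163.0 against 176.3 and 165.9 CPM, a log2 fold change of 0.0062. Traf1, Cyld and Tnfrsf1b had log2 fold changes of 0.18, −0.033 and 0.11. Tnfrsf10b, Fasl and Cflar, the 3 under 0.05 before adjustment, are added outside the rule for named genes and after their values were seen. Both libraries labelled knockout lay above both controls in these and in Tnfsf10, Tnfrsf1b and Ripk1. They lay below in Tnfrsf1a and Fadd. Over all tested genes these shares were 21% and 23.8%. Tnfrsf10b, the TRAIL receptor, stood at 12.9 and 26.2 against 43.0 and 40.2 CPM (log2 fold change 1.09, adjusted p = 0.0568). For Fasl, the ligand of Fas, the log2 fold change was 0.54 (adjusted p = 0.0999). For Cflar, which restrains Casp8, it was 0.29 (adjusted p = 0.256). Tnfrsf10b had 12% shared words and Cflar 9.55%.

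Among partners and turnover factors of BCL-2 proteins, 1 of 10 tested genes rose. This was Dynll1, the light chain best known for holding BIM, from 87.1 and 75.2 CPM to 127.4 and 122.3 CPM (log2 fold change 0.62 ± 0.12, SE, adjusted p = 0.0123), with 7.53% shared words. The call was lost with library totals alone (adjusted p = 0.0513). Dynll2, the light chain best known for holding BMF, is added here outside the rule for named genes, and was at 142.1 and 138.9 against 144.6 and 162.5 CPM (adjusted p = 0.682). Huwe1 and Usp9x, which add and remove ubiquitin on MCL-1, had log2 fold changes of −0.0061 (adjusted p = 0.989) and 0.62 (adjusted p = 0.0802). Tmbim6 and Bag6 had log2 fold changes of −0.076 and 0.017.

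In the list of cytokine survival signalling and regulators of BH3-only genes, 1 of 21 rose. Akt2, a kinase that restrains FoxO factors, went from 81.9 and 79.8 CPM to 183.4 and 174.5 CPM (log2 fold change 1.15 ± 0.11, SE, adjusted p = 0.00014), with 13.5% shared words. For the IL-2 receptor chains Il2ra and Il2rb the log2 fold changes were −0.14 (adjusted p = 0.787) and −0.069 (adjusted p = 0.885). They were 0.083 for the transcription factor Nfkb1 and 0.015 for Jak1, the kinase of the IL-2 receptor.

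The p53 list showed a difference between the 2 control libraries. All 15 of its genes were lower in control 1 than in control 2, against 49.9% of all tested genes, and 13 of 15 had their lowest value in control 1, against 30.3%. The median log2 ratio of control 1 to control 2 was −0.71 over the list and 0 over all tested genes. Ccng1, a target of p53, stood at 347.9 CPM in control 1 and at 601.5, 593.9 and 630.9 CPM in control 2, knockout 1 and knockout 2. Cdkn1a, which encodes the cell cycle inhibitor p21, was at 226.0 against 317.8, 437.1 and 338.8 CPM, and Trp53inp1 at 155.0 against 332.1, 217.5 and 247.4 CPM. Trp53 itself, named after its values were seen, was at 137.3 and 137.8 CPM in the controls and at 134.1 and 159.4 CPM under the knockout label. With library totals alone, 15 were lower in control 1 than in control 2 and 12 had their lowest value there.

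The median log2 ratio of control 1 to control 2 was −0.071 over the members. Of these, 6 of 10 were lower in control 1 than in control 2, against 49.9% of all tested genes. Those known as p53 targets were among the 6. Bax, Bbc3 and Pmaip1 each had their lowest value in control 1, at 0.803, 0.713 and 0.791 times control 2. Bcl2, Bcl2l1 and Bid were also lowest there, at 0.944, 0.863 and 0.96 times control 2, whereas Mcl1, Bcl2l11 and Bak1 were highest there, at 1.24, 1.09 and 1.09 times. For Bmf the 2 controls were equal to within counting error (ratio 1.0). This pattern was noticed after the values were seen, it rests on 1 library, and no label tells the 2 controls apart.

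Between genotypes, 2 of the 15 p53 genes rose, and the sizes depend on which control and which scaling is used. Mdm4, the paralog of the p53 inhibitor Mdm2, went from 100.0 and 164.5 CPM to 442.3 and 438.2 CPM (log2 fold change 1.74 ± 0.21, SE, adjusted p = 0.000835), with 14.4% shared words. Aen, a nuclease induced by p53, went from 45.1 and 73.7 CPM to 129.2 and 130.3 CPM (1.13 ± 0.20, SE, adjusted p = 0.00943; 0.0521 among single-copy genes). The median log2 fold change of the list was 0.44 with 13 of 15 positive, 0.12 with 10 positive without control 1, and 0.79 with 14 positive without control 2, where 9 genes passed the threshold. It was 0.20 with 9 positive with library totals alone, where the median of all genes was −0.26. Of all tested genes 46.2% were positive with TMM scaling. Likewise, without control 1 the log2 fold changes of Bax, Bbc3 and Pmaip1 were 0.053, −0.14 and 0.082, and without control 2 they were 0.34, 0.32 and 0.40.

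**Figure D5:**
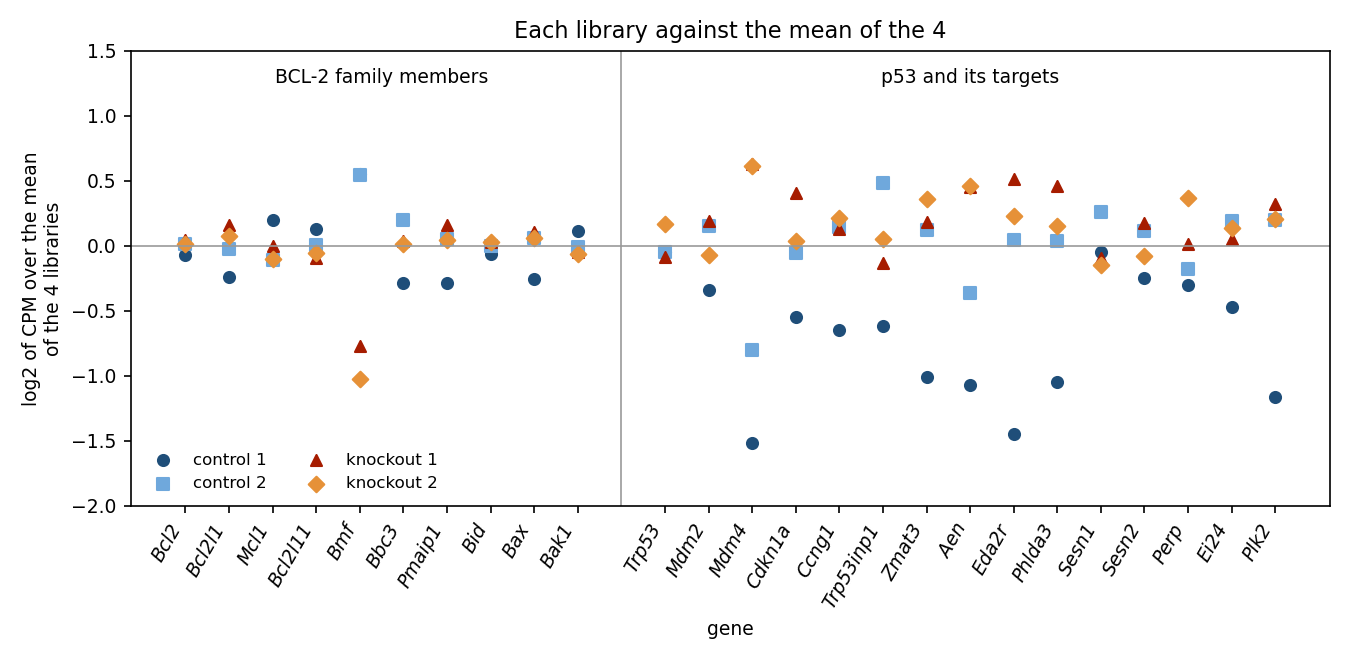
Each library against the mean of the 4, as log2 of the CPM ratio, for the 10 members (left) and the 15 genes of the p53 list (right). Control 1 (dark circles) lies lowest in 13 of the 15 p53 genes and in 6 of the 10 members, among them Bax, Bbc3 and Pmaip1. Over all tested genes this share is 30.3%. Bmf and, in the p53 list, Mdm4 separate by label with wide gaps, in opposite directions.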

How the data were processed

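The members and gene lists were chosen with earlier results of these data known. The deposited table held raw counts per gene in whole numbers. Build GRCm38 is named in the submitters' processing notes, beside HTSeq 0.6.1p1, TopHat2 2.0.13, DESeq2 1.14.1 and cutadapt 1.11. What each tool did, the annotation, the strand setting and the handling of reads with several matches are not given in the sources used here. Of 23419 entries, 720 without a name (no value under the knockout label, 1.13% and 1.17% of control counts) and 27 with a date for a name (0.261% to 0.312%) were left out.

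Counts were tested with edgeR 4.0.16 in R 4.3.3 by its quasi-likelihood test after TMM scaling and filterByExpr (minimum count 10), with p-values adjusted by Benjamini-Hochberg and a threshold of 0.05. The procedure was checked on simulated counts. SE is the absolute log2 fold change over the square root of F. Alternatives were DESeq2 1.42.0, limma-voom (limma 3.58.1), robust fitting, library totals alone, no filter, a replicate block, each library left out and single-copy genes. In CPM, 3 counts were worth 0.0598 to 0.0639. Lengths, exonic overlap and shared 30-base words came from GENCODE M21, which matched 21753 symbols directly and 635 through a synonym. Named genes were all members and, per list, every gene past the threshold and at most 4 of highest mean count. 1 gene that this rule names is not reported here.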

Additional observations from a re-analysis of the deposited data

How the results depend on the processing

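The log2 fold change of Bmf ran from −1.68 to −1.32 over 11 alternatives, as a description. Bid, Bax and Bak1 are not single-copy and had 10. With library totals alone Bcl2l11 was at −0.38, where the median of all genes was −0.26. The 7 calls in the pathway lists became 11 with DESeq2 and 0 among single-copy genes, and 9 to 18 with each library left out, 18 being without control 2. Of all genes 861 passed the threshold, 765 higher and 96 lower. With library totals alone there were 2084, of which 1432 were lower, and among single-copy genes 71, 62 higher and 9 lower. Leaving out each library gave 732 to 1055 calls and 87 to 230 lower ones. The labels do not say whether replicate numbers pair the libraries. Deviations of control 1 and knockout 1 from their group means correlated at −0.037 over genes. With 2 libraries a group this cannot exclude a pairing that touches some of the genes. With the replicate block 1120 genes were called, 178 of them lower. They held 14 pathway genes, 5 of them from the p53 list. Each fit without 1 library assumes that the lone library left in its group varies like the other group's. Depth was lowest for Bmf, at 258 reads in knockout 2. The cause of these shifts was not tested.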

Other observations

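The 5 tested single-copy genes whose profile over the 4 libraries lay nearest to that of Bmf (Euclidean distance between centred log2 values of CPM + 0.1, among 9073 genes) were Zan, Pipox, Galnt9, Ggt1 and Klf2. Klf2, a transcription factor of resting T cells, stood at 45.9 and 32.3 CPM in the control libraries and at 18.9 and 15.1 CPM under the knockout label. Ggt1, a gamma-glutamyltransferase of glutathione breakdown, stood at 6.96 and 8.27 against 4.02 and 3.01 CPM. Zan, Pipox and Galnt9 stayed under 2 CPM in all 4 libraries. Likeness over 4 libraries is a description of these values.

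Bcl2a1b, Bcl2a1a and Bcl2a1d encode near-identical pro-survival A1 proteins and share 74.4%, 80.3% and 89.6% of their words with other genes, so their counts are uncertain. Bcl2a1b stood at 16.6 and 14.2 against 17.1 and 12.8 CPM, and Bcl2a1d at 4.11 and 3.19 against 3.83 and 3.25 CPM. Fas, the death receptor, is given here after its values were seen, at 13.01 CPM in control 1 and at 28.3, 26.3 and 22.9 CPM in control 2, knockout 1 and knockout 2.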
